A study of Mus musculus with 9 samples.

Results

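The 7 genes described here encode G protein-coupled receptors: Gpr83, Agtr2, Ednrb, Sstr2, Ednra, Gpr149 and Gpr176. They are 7 of the 24100 genes in the count table, and all 7 were among the 14761 genes with enough counts to be tested. They were named in advance as strongly shifted receptors, that is, selected on their differences between the groups in these same libraries. Those differences are therefore given as a description, without a test. For Ednra the data go against that label, since its RNA lay at similar levels in all 3 groups.

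Poly(A) RNA was sequenced from cultures that the labels call neural and that were differentiated from mouse embryonic stem cells. Every group carried a PiggyBac transgene, inserted into the genome by a DNA transposon and stably expressed, for histone H4 with a 3HA tag, a short peptide that antibodies recognise. The histone was unaltered in H4WT, had lysine 91 replaced by arginine in H4K91R, and by glutamine in H4K91Q, with 3 libraries in each group. Arginine keeps the positive charge of lysine, glutamine is commonly used to stand in for acetyl-lysine, and no library without a transgene is among the 9. The labels do not give the promoter of the transgene, and they do not say whether replicates are separate lines, clones or differentiations. The p-values below thus measure only the spread between these libraries.

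The smallest library, H4WT replicate 3, held 8970553 counts, the largest, H4WT replicate 2, 28887501, and the middle one 16364686. H4WT replicate 1 held 9081484, so depth was uneven within H4WT. Markers of neurons were present, and so were markers of other lineages. The 10 neuronal markers (such as Tubb3 and Dcx) summed to 318 to 1125 CPM over the 9 libraries, where CPM is a gene's count per 1000000 counts of its library, after TMM adjustment of library sizes. The 10 fibroblast and mesenchyme markers (such as Col1a1 and Col3a1) summed to 6029 to 8096 CPM. Each value is from bulk RNA, in which fewer cells of a type and less RNA per cell cannot be told apart.

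G protein-coupled receptors cross the cell membrane and, when a ligand binds, switch on a heterotrimeric G protein inside the cell. The alpha subunit decides much of the outcome: Gs raises cyclic AMP through adenylyl cyclase, Gi lowers it, and Gq activates phospholipase C beta. Receptor kinases and arrestins then silence the receptor, and RGS proteins speed the return of the G protein to its resting state. In neural and vascular tissue these receptors read peptides such as endothelins, angiotensin II and somatostatin. Endothelin signalling through Ednrb is needed for neural crest cells that form enteric neurons and melanocytes.

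The upstream sequences shown are those of the 3 receptors whose RefSeq start is the outermost annotated one. Of these, Agtr2 and Sstr2 stood higher in the mutants and Ednra did not. RefSeq promoter windows (build GRCm38.p6, a patch of mm10) were found for 6 of the 7 genes, all but Gpr149. Each window holds 300 bases, 250 before and 50 after the annotated start. The lines give the 250 bases before the start, 5′ to 3′ on the strand of the gene. Capitals mark a TATAA core in Agtr2 and a full cyclic AMP response element, TGACGTCA, in Sstr2, and there are none in Ednra.
Agtr2, chrX:21484374-21484623, plus strand: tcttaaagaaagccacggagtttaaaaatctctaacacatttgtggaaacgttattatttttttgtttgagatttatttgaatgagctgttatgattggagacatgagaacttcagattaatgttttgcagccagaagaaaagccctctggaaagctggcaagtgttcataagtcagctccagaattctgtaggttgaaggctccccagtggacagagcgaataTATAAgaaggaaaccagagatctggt
Sstr2, chr11:113619077-113619326, plus strand: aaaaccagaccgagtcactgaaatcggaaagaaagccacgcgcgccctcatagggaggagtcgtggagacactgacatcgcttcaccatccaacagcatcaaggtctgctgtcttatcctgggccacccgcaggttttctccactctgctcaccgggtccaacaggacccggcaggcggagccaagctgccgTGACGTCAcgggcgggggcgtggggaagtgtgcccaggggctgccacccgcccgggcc
Ednra, chr8:77724453-77724702, minus strand: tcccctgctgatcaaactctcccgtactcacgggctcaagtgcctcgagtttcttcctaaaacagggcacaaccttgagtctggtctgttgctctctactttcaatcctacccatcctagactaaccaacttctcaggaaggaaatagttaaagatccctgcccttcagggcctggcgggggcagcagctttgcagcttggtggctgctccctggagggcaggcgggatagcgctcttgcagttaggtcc

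The Agtr2 core begins at position -26 from the start, and TATAA on the sense strand between -40 and -20 occurs in 3.38% of 32851 RefSeq promoter windows. The Sstr2 element begins at -58, and TGACGTCA, read on both strands over the whole window, occurs in 1.79% of them. These matches are descriptions of the letters and not of bound sites. In their 300-base windows CpG dinucleotides numbered 27 in Sstr2, 24 in Gpr83, 20 in Gpr176, 15 in Ednrb, 8 in Ednra and 5 in Agtr2, against a median of 7 over all windows. The starts of Gpr83, Gpr176 and Ednrb in these windows are not the outermost annotated ones, so their CpG counts are for inner starts. The bases after the RefSeq start lay in a GENCODE transcript for Gpr83, Gpr176, Agtr2 and Ednra, but not for Sstr2 and Ednrb. The position -58 in Sstr2 and the CpG counts of Sstr2 and Ednrb therefore rest on the RefSeq start alone. Among receptors that stood higher in the mutants the counts ran from 27 in Sstr2 to 5 in Agtr2. The Agtr2 count lay near the middle, since 43.6% of all windows had as few or fewer. Gpr176, which stood lower, had 20.

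In both mutants Gpr83, Agtr2, Ednrb and Sstr2 stood above H4WT in every library, Gpr149 and Gpr176 stood below it in every library, and Ednra overlapped it. Gpr83 is a brain receptor for which peptides such as PEN, cut from the proSAAS precursor, have been proposed as ligands (Entrez 14608, chromosome 9, 14859880 to 14870789). Gpr83 RNA was at 0.842, 0.407 and 0 CPM in H4WT replicates 1, 2 and 3. It was at 11.1, 14.2 and 14.9 CPM in H4K91R and at 16.1, 12.8 and 11.8 CPM in H4K91Q. All 6 mutant libraries lay far above all 3 H4WT libraries, where Gpr83 had 7, 11 and 0 counts. A count of 0 in H4WT replicate 3 allows up to 3 counts, or 0.367 CPM, for counting error only. The fitted log2 difference for Gpr83 was 4.98 ± 0.34 in H4K91R and 5.01 ± 0.34 in H4K91Q (± SE, n = 3 libraries per group), which ranked 3 and 4 among all increases. These fitted values rest on an H4WT group near the detection floor.

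Agtr2, the type 2 receptor of angiotensin II, is abundant in fetal mesenchyme and falls after birth (Entrez 11609, chromosome X, 21484624 to 21488833). Agtr2 was at 13.7, 18.2 and 11.4 CPM in H4WT. Its levels were 66.9, 115 and 124 CPM in H4K91R and 173, 185 and 153 CPM in H4K91Q. The 3 groups did not overlap, H4K91Q was the highest, and H4K91R replicate 1 lay well below the other H4K91R libraries. The log2 difference from H4WT was 2.75 ± 0.22 in H4K91R and 3.50 ± 0.22 in H4K91Q.

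Ednrb, the endothelin receptor that binds all endothelins about equally, marks neural crest, astroglia and endothelium (Entrez 13618, chromosome 14, 103814615 to 103844508). Ednrb was at 4.21, 5.19 and 5.63 CPM in H4WT, 26.4, 26.3 and 22.0 CPM in H4K91R, and 16.3, 16.1 and 18.0 CPM in H4K91Q. Here too the groups did not overlap, but H4K91R was the highest and H4K91Q lay between. The log2 difference from H4WT was 2.30 ± 0.13 in H4K91R and 1.73 ± 0.13 in H4K91Q.

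Sstr2, a Gi-coupled somatostatin receptor of neurons and endocrine cells, was the least abundant of the 4 higher receptors in the mutants (Entrez 20606, chromosome 11, 113619327 to 113626028). Sstr2 was at 0.962, 0.741 and 1.10 CPM in H4WT, 3.17, 3.62 and 3.54 CPM in H4K91R, and 3.0, 2.39 and 2.70 CPM in H4K91Q. Each mutant library lay above each H4WT library, and the 2 mutants did not overlap. The log2 difference from H4WT was 1.97 ± 0.24 in H4K91R and 1.63 ± 0.24 in H4K91Q. Without H4WT replicate 2 these values were 1.73 and 1.38. The H4WT values of Sstr2 rest on 8, 20 and 9 counts.

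Gpr149, an orphan receptor best known from ovary and brain, stood lower in both mutants (Entrez 229357, chromosome 3, 62529430 to 62605440). Gpr149 was at 16.0, 5.04 and 15.4 CPM in H4WT, 1.61, 0.708 and 0.689 CPM in H4K91R, and 0.300, 0.548 and 0.645 CPM in H4K91Q. H4WT replicate 2 was low within its group and H4K91R replicate 1 was high within its own, yet no mutant library reached H4WT. The mutant values rest on 28, 9 and 7 counts in H4K91R and 7, 11 and 11 in H4K91Q, against 133, 136 and 126 in H4WT. The log2 difference from H4WT was -3.40 ± 0.48 in H4K91R and -4.55 ± 0.50 in H4K91Q, the latter ranking 5 among all decreases. Without H4K91R replicate 1 the H4K91R value was -4.01.

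Gpr176, an orphan receptor of the brain's circadian clock centre reported to act through Gz, followed the same pattern (Entrez 381413, chromosome 2, 118277096 to 118374549). Gpr176 was at 16.5, 9.85 and 16.7 CPM in H4WT, 2.13, 0.944 and 0.689 CPM in H4K91R, and 1.24, 0.648 and 0.586 CPM in H4K91Q. The outlying libraries were those of Gpr149, with H4WT replicate 2 lowest in its group and H4K91R replicate 1 highest in its own. The log2 difference from H4WT was -3.35 ± 0.35 in H4K91R and -4.02 ± 0.35 in H4K91Q, the latter ranking 7 among all decreases. Without H4K91R replicate 1 the H4K91R value was -4.05.

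Ednra, the endothelin receptor that prefers Edn1 and acts in vascular smooth muscle and cranial mesenchyme, was the exception (Entrez 13617, chromosome 8, 77663029 to 77724452). Ednra was at 63.0, 65.0 and 77.0 CPM in H4WT, 69.6, 60.6 and 52.3 CPM in H4K91R, and 70.7, 65.8 and 72.3 CPM in H4K91Q. The 3 groups overlapped throughout. The log2 difference was -0.16 ± 0.11 in H4K91R and 0.03 ± 0.10 in H4K91Q. With libraries scaled by their totals alone these values were 0.03 and 0.20, so the sign for H4K91R depends on the scaling. The H4K91Q value also changed sign, to -0.02 without H4WT replicate 1 and -0.01 without H4WT replicate 2.

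**Figure D1:**
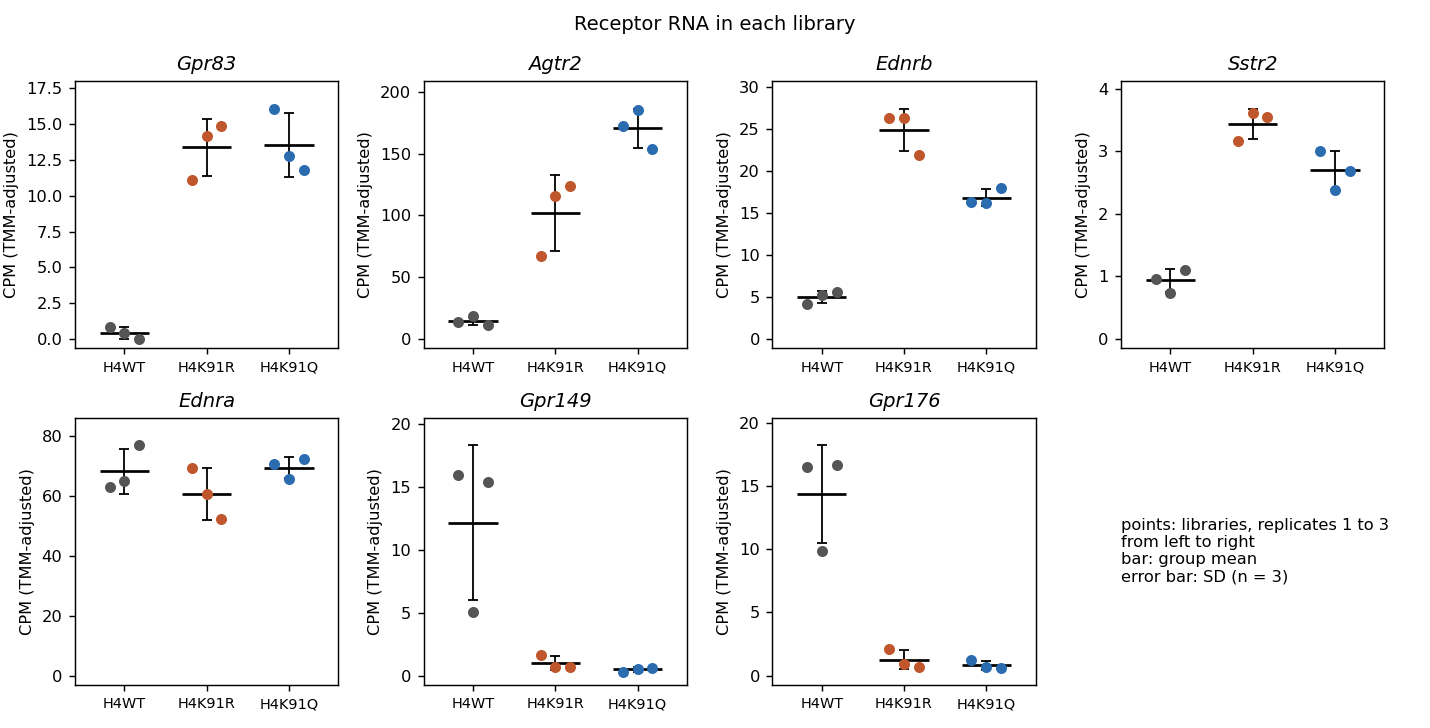
Each panel plots 1 receptor, with TMM-adjusted CPM on a linear axis and the 3 groups side by side. Points are libraries, the bar is the group mean and the error bar the SD (n = 3). The 4 receptors above H4WT, the 2 below it and the overlapping Ednra groups can be read from the points, for example 153 to 185 CPM for Agtr2 in H4K91Q against 11.4 to 18.2 in H4WT.

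By the threshold used for all genes (edgeR quasi-likelihood test, Benjamini-Hochberg adjusted p below 0.05), 6 of the 7 receptors passed in H4K91R against H4WT, beside 46.0% of all tested genes. Of these 4 were higher, beside 20.9% of all genes, and 2 were lower, beside 25.1%. The libraries of the 2 groups did not overlap for 6 of 7 receptors, beside 55.1% of all genes. In H4K91Q against H4WT again 6 of 7 passed, beside 46.3% of all genes, with 4 higher, beside 22.5%, and 2 lower, beside 23.8%. Non-overlap was again found for 6 of 7, beside 55.1%. Nothing is read from these counts, because the receptors were selected on these libraries. At the edge of the selection, Sstr2 in H4K91Q was the smallest difference that passed, at 1.63, and Ednra, at -0.16 and 0.03, lay outside.

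**Figure D2:**
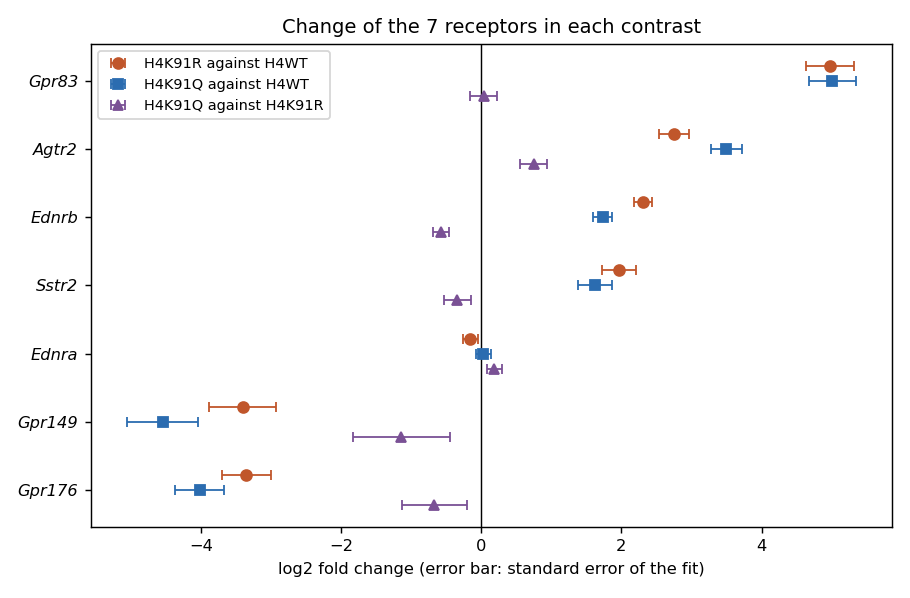
Points give the fitted log2 difference of each receptor in the 3 contrasts, and error bars give the standard error of the fit. The values against H4WT reach 5.01 for Gpr83 and -4.55 for Gpr149, while the differences between the mutants run from -1.14 for Gpr149 to 0.75 for Agtr2.

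The comparison of H4K91Q with H4K91R asks whether the substitutions differ from each other. The label does not say which contrast the receptors were selected on, so this one is described too, without p-values for them. Agtr2 was higher in H4K91Q than in H4K91R, by 0.75 ± 0.19 on the log2 scale. Ednrb was lower in H4K91Q, with a log2 difference of -0.57 ± 0.11. By the threshold used for all genes these 2 of 7 receptors passed, beside 5.16% of all tested genes, with 1 higher, beside 2.37%, and 1 lower, beside 2.78%. Nothing is read from these counts either. The mutants' libraries did not overlap for 4 of 7 receptors, Agtr2, Ednrb, Sstr2 and Gpr149, beside 25.4% of all genes.

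Neither stayed past that threshold in every setting, though both kept their direction. Agtr2 missed it with DESeq2 and without H4WT replicate 1, H4K91R replicate 1 or 2, or H4K91Q replicate 1 or 2, and its difference ran from 0.51 to 0.91 over the fits leaving out 1 library. Ednrb missed it without H4K91R replicate 2 or H4K91Q replicate 1 or 2, and its difference ran from -0.65 to -0.53.

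The other 5 receptors did not pass the threshold between the mutants. The log2 difference was 0.03 ± 0.19 for Gpr83, 0.19 ± 0.10 for Ednra and -0.34 ± 0.19 for Sstr2. It was -1.14 ± 0.69 for Gpr149 and -0.67 ± 0.46 for Gpr176, which had 7 to 37 counts in each mutant library. Without H4K91R replicate 1 these values were -0.53 for Gpr149 and 0.04 for Gpr176.

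Ratios of receptors within a library do not depend on how libraries are scaled. Ednrb counts relative to Ednra counts were 0.0668, 0.0798 and 0.0731 in H4WT, 0.379, 0.435 and 0.420 in H4K91R, and 0.231, 0.245 and 0.249 in H4K91Q. The 3 groups did not overlap, and in every library Ednra had more counts than Ednrb. Agtr2 counts relative to those of Agtr1a, which encodes the main type 1 receptor for the same peptide, were 2.78, 3.21 and 1.94 in H4WT. They were 6.02, 10.6 and 8.94 in H4K91R and 11.4, 13.2 and 13.6 in H4K91Q, again without overlap. These ratios are of counts not corrected for length, and they reuse the values on which the receptors were selected.

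**Figure D3:**
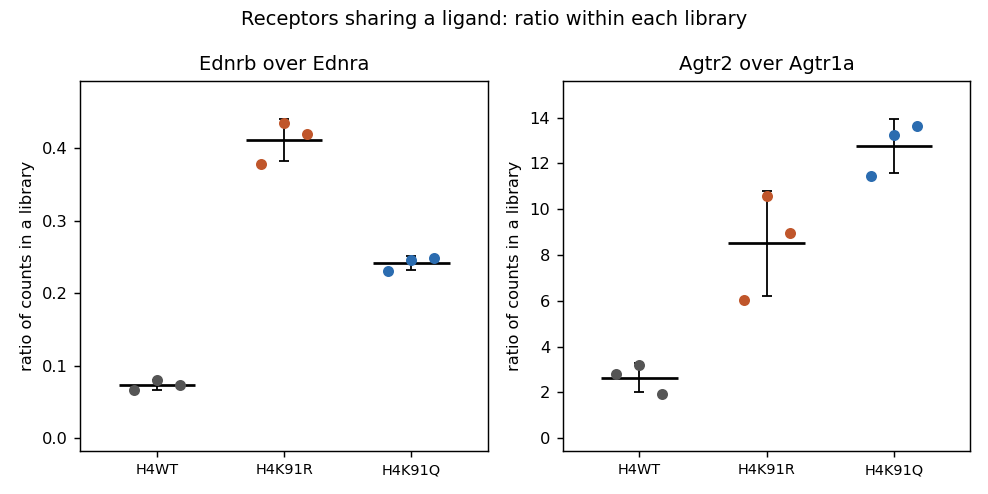
Each panel plots 1 ratio of counts on a linear axis by group, Ednrb over Ednra and Agtr2 over Agtr1a, with points for libraries and bars for the mean and SD (n = 3). The first ratio is highest in H4K91R (0.379 to 0.435) and the second is highest in H4K91Q (11.4 to 13.6).

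On the scale of CPM per kilobase of merged exon, which allows genes to be compared, Ednra was the most abundant receptor in H4WT at 18.9 ± 2.09 (mean ± SD, n = 3). Agtr2 at 4.39 ± 1.05, Gpr176 at 3.67 ± 0.994 and Gpr149 at 2.88 ± 1.46 came next and did not differ beyond their spread. Ednrb at 1.17 ± 0.171, Sstr2 at 0.436 ± 0.085 and Gpr83 at 0.116 ± 0.117 came last in H4WT. The order was different in the mutants. Agtr2 led with 31.1 ± 9.40 in H4K91R and 51.9 ± 4.87 in H4K91Q, above Ednra at 16.8 ± 2.38 and 19.2 ± 0.931. Ednrb followed at 5.83 ± 0.594 and 3.94 ± 0.240, then Gpr83 at 3.73 ± 0.557 and 3.78 ± 0.629, so that in H4K91Q these neighbours did not differ beyond their spread. Sstr2 stood at 1.61 ± 0.113 and 1.26 ± 0.142. Gpr176 at 0.322 ± 0.197 and 0.212 ± 0.0932 and Gpr149 at 0.238 ± 0.125 and 0.118 ± 0.0421 were last and overlapped each other.

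In the endothelin system Edn1, Ece1, Ece2 and Mme fell where Ednrb stood higher, Ecel1 rose, and Edn3 did not pass. Of 6 tested genes apart from the receptors, 1 rose and 4 fell in each mutant, 83.3% called beside 46.0% and 46.3% of all genes, with a median log2 difference of -0.48 in H4K91R and -0.40 in H4K91Q, against -0.03 and 0.01 over all genes. Edn1, the endothelin peptide of endothelium, fell by 1.24 ± 0.19 and 1.45 ± 0.19 on the log2 scale (edgeR, adjusted p = 1.68e-04 and 4.16e-05). Edn3, the ligand that works with Ednrb in neural crest, was at 1.78, 2.28 and 2.62 CPM in the 3 groups and did not pass (edgeR, adjusted p = 0.559 and 0.182). The converting enzyme genes Ece1 (-0.48 and -0.39) and Ece2 (-0.48 and -0.41) also fell, although for H4K91Q both calls ended with library-total scaling (adjusted p = 0.0567 and 0.0873). Mme, the peptidase neprilysin, fell by 1.01 and 1.09. The 1 gene that rose was Ecel1, a peptidase of neurons related to Ece1, by 2.16 ± 0.25 and 1.64 ± 0.25 (2.84 and 2.31 without H4WT replicate 2). Edn2 reached at most 9 counts in a library and was not tested.

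In the angiotensin system the precursor gene Agt was almost absent, with at most 9 counts in a library, so receptor RNA stood high where precursor RNA was hardly detected. Of 7 tested genes apart from Agtr2, 3 rose and 1 fell in H4K91R (57.1% called, beside 46.0% of all genes), and 3 rose and 2 fell in H4K91Q (71.4%, beside 46.3%). The medians were -0.0011 and 0.26, against -0.03 and 0.01 over all genes. Agtr1a rose by 1.10 ± 0.16 and 1.29 ± 0.15 on the log2 scale (edgeR, adjusted p = 8.53e-05 and 2.03e-05), while Agtr1b, at 1.60 to 1.98 CPM on average, did not pass. Atp6ap2, the prorenin receptor, was at 128, 122 and 132 CPM in the 3 groups and did not pass, and Mas1, a receptor for a shortened angiotensin, had at most 4 counts in a library. Enpep, the aminopeptidase that trims angiotensin II, rose by 0.77 and 0.72, and Lnpep, which binds angiotensin IV, fell by 1.05 and 0.99. The remaining calls did not hold in every setting. Ace, the converting enzyme, fell by 0.94 in H4K91Q, a call that ended with DESeq2 (adjusted p = 0.0694) and without H4WT replicate 2 or 3 or H4K91Q replicate 1 or 2. Agtrap, which binds the type 1 receptor, rose by 0.24 and 0.26, and both calls ended without H4WT replicate 1 (adjusted p = 0.110 and 0.0888).

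In the somatostatin system the peptide gene and Sstr1 rose with Sstr2, while the receptor gene Sstr4 did not rise. Of 3 tested genes apart from Sstr2, 2 rose in H4K91R (66.7% called, beside 46.0% of all genes), and 2 rose and 1 fell in H4K91Q (100%, beside 46.3%). The medians were 1.54 and 0.94. Sst, the peptide gene, rose by 1.54 ± 0.24 and 0.94 ± 0.24 on the log2 scale (edgeR, adjusted p = 1.86e-04 and 0.00649). Sstr1 rose by 1.67 and 1.35, and per kilobase its level, 0.459 CPM in H4WT, lay within the spread of Sstr2. Sstr4 fell in H4K91Q by 0.60, a call that ended with library-total scaling (adjusted p = 0.0919), with DESeq2 (0.0657) and without H4WT replicate 2 or 3 or H4K91Q replicate 2. Sstr3, Sstr5 and Cort, which encodes a related peptide, were too low to be tested.

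Among genes for proposed Gpr83 ligands and their processing, 2 of 3 tested rose and 1 fell in both mutants, where 46.0% and 46.3% of all genes were called, with medians of 1.53 and 0.88. Of 6 names listed, 4 matched the count table, and the proposed ligand genes Fam237a and Fam237b did not. Only 1 ligand gene, Pcsk1n, was thus tested. Pcsk1n, which encodes proSAAS, rose by 1.53 ± 0.25 and 0.88 ± 0.25 on the log2 scale (edgeR, adjusted p = 2.30e-04 and 0.0109). Pcsk2, a prohormone convertase, rose by 2.19 and 1.87. Cpe, the carboxypeptidase that trims such peptides, fell by 0.21 and 0.28, but with library-total scaling both calls ended (adjusted p = 0.783 and 0.196). The call for Cpe in H4K91R also ended without H4WT replicate 2 or 3 or H4K91R replicate 2 or 3. Pcsk1, the convertase most tied to proSAAS, had at most 4 counts in a library and was not tested.

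**Figure D4:**
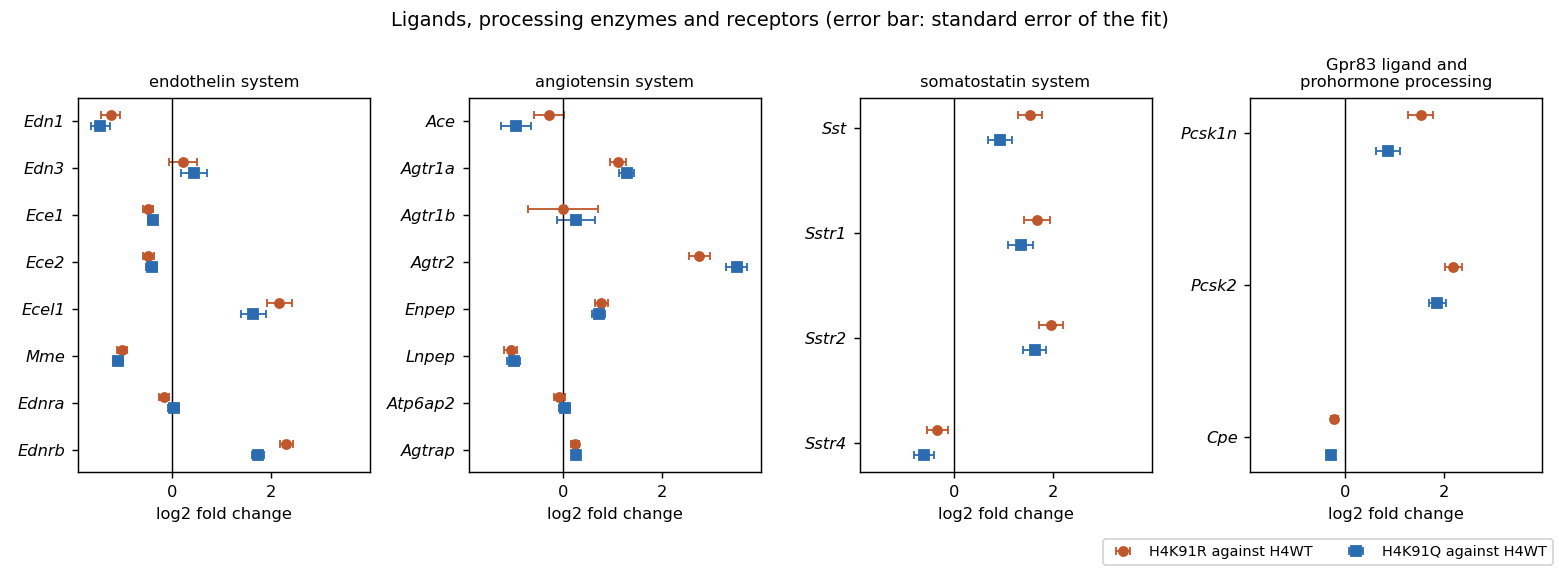
Panels plot the fitted log2 difference from H4WT (x axis) for the tested genes of the endothelin, angiotensin, somatostatin and Gpr83 ligand lists, with circles for H4K91R, squares for H4K91Q and error bars for the standard error. Edn1 lies at -1.24 and -1.45 while Ednrb lies at 2.30 and 1.73, and Sst, Sstr1 and Sstr2 all lie above 0.

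The lists downstream of the receptors can be read against the 46.0% and 46.3% of all genes called in H4K91R and H4K91Q. Of 13 tested G protein alpha subunit genes, 4 rose and 4 fell in H4K91R (61.5% called), and 4 rose and 5 fell in H4K91Q (69.2%). Gnao1, the Go alpha subunit of neurons, rose by 1.82 ± 0.10 and 1.32 ± 0.10 on the log2 scale (edgeR, adjusted p = 4.73e-08 and 6.43e-07). Gnal, the Gs-like subunit of olfactory and striatal neurons, rose by 0.88 and 0.59. Gnai2 fell by 0.42 and 0.53 and Gnai3 by 0.41 and 0.30, both broadly expressed Gi subunits, and the Gnai3 call in H4K91Q ended with library-total scaling (adjusted p = 0.0955). Gnaz, the Gz subunit reported as the partner of Gpr176, was singled out after its values were seen. It rose while Gpr176 stood lower, by 1.23 ± 0.20 in H4K91R (edgeR, adjusted p = 2.09e-04) and 0.54 ± 0.20 in H4K91Q (edgeR, adjusted p = 0.0377). The H4K91Q call for Gnaz ended with DESeq2 (adjusted p = 0.0745), in a fit of the compared groups alone (0.0579), and without H4WT replicate 1 or 2 or H4K91Q replicate 2 or 3.

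Of 14 tested beta and gamma subunit genes, 6 rose and 2 fell in H4K91R (57.1% called) and 6 rose and 3 fell in H4K91Q (64.3%). Gng3, a neuronal gamma subunit, rose by 2.09 and 1.87, Gng2 by 1.07 and 0.83, Gng7 by 0.91 and 0.77, and the beta subunit gene Gnb4 by 0.64 and 0.71. Of 12 adenylyl cyclase and phospholipase C beta genes, 7 rose and 2 fell in H4K91R (75.0% called) and 4 rose and 2 fell in H4K91Q (50%). Plcb1 rose by 1.16 and 1.0, and the cyclase genes Adcy1 by 1.04 and 0.71, Adcy2 by 0.83 and 0.51 and Adcy8 by 1.40 and 0.90. The call for Adcy8 in H4K91Q ended without H4WT replicate 2 (adjusted p = 0.0862).

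Among 9 receptor kinase and arrestin genes, 2 rose and 1 fell in H4K91R and 2 rose in H4K91Q, 33.3% and 22.2% called, both shares below those of all genes. Both that rose were arrestins, Arrb1 by 0.93 and 0.83 and Arrb2 by 0.64 and 0.68. Grk4, a receptor kinase, fell in H4K91R by 0.62, a call that ended with library-total scaling (adjusted p = 0.114), limma-voom (0.0710), a fit of the compared groups alone (0.0634), and without H4WT replicate 1 or 3 or H4K91R replicate 1 or 3. Of 14 RGS genes, 6 rose and 3 fell in H4K91R (64.3% called) and 5 rose and 3 fell in H4K91Q (57.1%). Rgs2, which acts on Gq, rose by 0.93 and 0.98, and Rgs9, an RGS gene of striatum and retina, rose by 1.02 and 1.19. Rgs16 fell by 1.13 and 1.29 and Rgs12 by 0.62 and 0.88. The medians of these 5 signalling lists lay between -0.18 and 0.50 in H4K91R and between -0.11 and 0.33 in H4K91Q, against -0.03 and 0.01 over all genes.

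The 7 receptors can be set beside 159 other tested receptors from a list of 351 names, of which 348 matched the table. In H4K91R 56 of these rose and 28 fell, which is 52.8% called beside 46.0% of all genes, and their median log2 difference was 0.22. In H4K91Q 48 rose and 33 fell, 50.9% beside 46.3%, with a median of 0.21. Between H4K91Q and H4K91R 5 rose and 12 fell, 10.7% beside 5.16%, with a median of -0.18 against 0.01 over all genes. This last count moved with single libraries: it was 2 and 7 without H4K91R replicate 1, 1 and 1 without H4K91R replicate 2, 3 and 3 without H4K91Q replicate 1, and 2 and 2 without H4K91Q replicate 2. Scaling by library totals moved the median of all genes by 0.18 in H4K91R and 0.17 in H4K91Q. Under it 5031 genes rose and 2013 fell in H4K91R, against 3092 and 3705, and 5557 rose and 2069 fell in H4K91Q, against 3314 and 3516.

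The other receptors with the largest increases in H4K91R were led by adhesion receptors. Adgrg1, an adhesion receptor of neural progenitors, rose from 8.10 to 47.3 CPM, by 2.49 ± 0.14 (edgeR, adjusted p = 7.39e-08). Adgrb3 and Adgrb1, brain adhesion receptors of synapses, rose by 2.14 and 2.10, the nociceptin receptor gene Oprl1 by 2.02 and the chemokine receptor gene Cxcr4 by 2.0. In H4K91Q Adgrg1 rose by 1.91, the prostaglandin F receptor gene Ptgfr by 1.89, the stem cell marker Lgr5 by 1.61, Oprl1 by 1.60 and Adgrb3 by 1.59. None of these reached the size of Gpr83 or Agtr2. Npy2r, a neuropeptide Y receptor gene whose mean was too low for the rule on named genes, was singled out after its values were seen: it rose by 3.59 ± 0.41 in H4K91Q, from 0.245 to 3.58 CPM (edgeR, adjusted p = 1.47e-05), a size above that of Agtr2. Without H4WT replicate 2 that value was 4.25. The largest decreases in H4K91R were in Adra1d, an adrenergic receptor gene, at -3.42 (-2.44 in H4K91Q), and Ackr4, which encodes a chemokine scavenger, at -2.98 (-2.35). Without H4K91R replicate 1 Ackr4 was at -3.71 in H4K91R. In H4K91Q they were in Npy1r, at -2.89 (-2.42 in H4K91R), and F2r, the thrombin receptor gene, at -2.65 (-2.19). Gprc5a fell by 2.05 in H4K91R and the vasopressin receptor gene Avpr1a by 2.15 in H4K91Q. F2r was by far the most abundant of these, at 514 CPM in H4WT, 112 in H4K91R and 82.0 in H4K91Q.

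**Figure D5:**
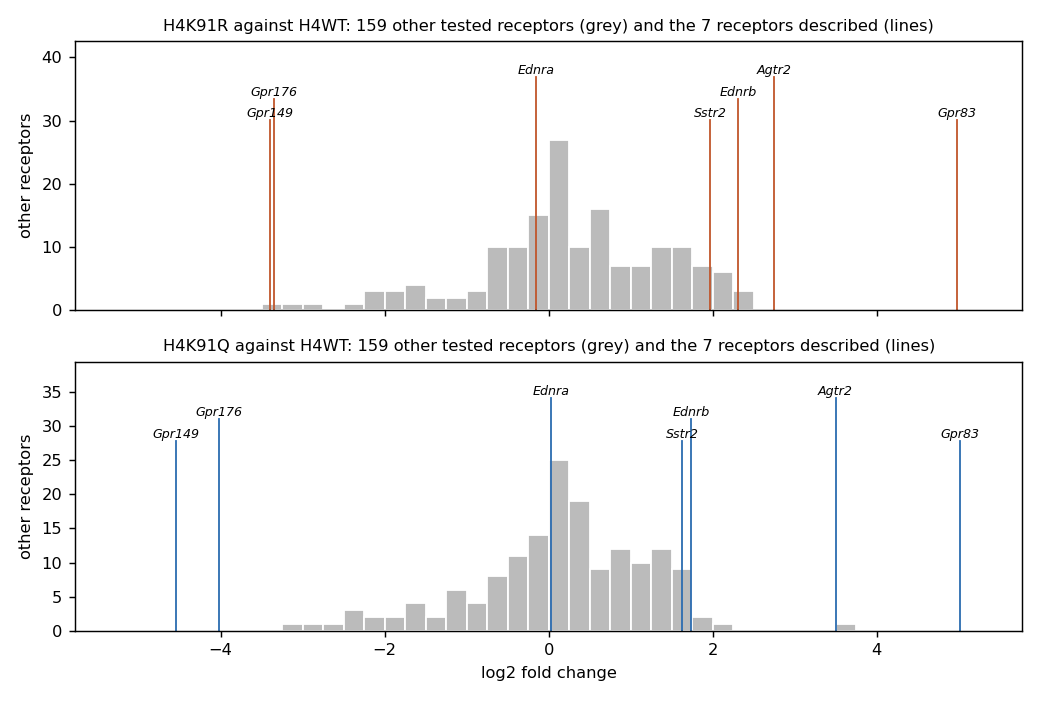
Grey bars count the 159 other tested receptor genes by their log2 difference from H4WT (x axis), with H4K91R in the upper panel and H4K91Q in the lower, and vertical lines mark the 7 receptors described here. Gpr83 lies farthest right at 4.98 and 5.01, and Ednra lies in the middle of the bars at -0.16 and 0.03; the height of a line has no meaning.

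Across the 9 libraries the receptors fell into sets with like profiles. Pearson's r of log2 CPM was 0.954 between Gpr149 and Gpr176 and 0.972 between Ednrb and Sstr2, while Agtr2 ran against Gpr149 (-0.983) and Gpr176 (-0.981). All these values share the same 9 libraries and mostly reflect the distance of H4WT from the mutants. Among tested genes averaging 2 CPM or more, the profiles closest to Gpr83 were those of Cntnap4 (0.991), Tk1 (0.990) and Cep78 (0.988). Such likeness is of shape and not of size. Tk1 averaged 37.7, 50.9 and 50.1 CPM in H4WT, H4K91R and H4K91Q, against 0.416, 13.4 and 13.5 CPM for Gpr83. Closest to Ednrb were Rnft2 (0.997), Plppr3 (0.996) and Gnao1 (0.996), the last being the Go subunit gene described above. Closest to Sstr2 were Adamts15 (0.995), Chl1 (0.992) and Ebf3 (0.991), and closest to Agtr2 were Tspan11, Matn2 and Igfbp4. Gpr149 was most like Tnfrsf12a (0.995), Vasp (0.995) and Aen (0.991), and Gpr176 most like Igfbp7 (0.996), Eda2r (0.995) and Polk (0.994). For Ednra, which hardly varied, the closest profiles reached only 0.917 (Kri1), 0.909 (Galnt4) and 0.906 (Srbd1).

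Markers of several cell types also differed between the groups. Their counts stand beside 46.0% and 46.3% of all tested genes called in H4K91R and H4K91Q against H4WT, and 5.16% between the mutants. All 10 smooth muscle markers (such as Acta2 and Myh11) fell in both mutants (edgeR, adjusted p below 0.05), and their sum was 5244 to 6331 CPM in H4WT, 939 to 1320 in H4K91R and 982 to 1016 in H4K91Q. H4WT replicate 2 had the lowest sum of its group and H4K91R replicate 1 the highest of its own, as for Gpr149 and Gpr176. Ednra, although known from smooth muscle, overlapped between the groups while these markers fell. Neuronal markers rose in 9 of 10 cases in both mutants, with sums of 318 to 401, 932 to 1125 and 765 to 811 CPM. Neural crest and Schwann markers summed to 25.4 to 28.3, 64.5 to 80.3 and 67.7 to 72.1 CPM. Of 8 tested, 5 rose in each mutant and 1 fell in H4K91R. Radial glia and astroglia markers rose in 6 of 9 cases in each mutant, and 1 fell in H4K91Q. Their sums were 254 to 317, 601 to 689 and 456 to 520 CPM. In neurons and radial glia, as for Ednrb, H4K91R was the highest group. The fibroblast and mesenchyme sum had medians of 6137, 7188 and 7493 CPM. Of its 10 markers, 4 rose and 1 fell in H4K91R, and 5 rose and 1 fell in H4K91Q. Between the mutants 3 were higher in H4K91Q than in H4K91R and 0 lower. Endothelial markers summed to 237 to 289 CPM over all libraries, and 2 of 7 changed in H4K91R and 3 of 7 in H4K91Q. Blood and microglia markers summed to 5.12 to 10.9 CPM, with Tyrobp at 0 in every library, and of 4 tested 3 fell in H4K91R and 2 in H4K91Q. Pluripotency markers summed to 339 to 428, 226 to 248 and 354 to 502 CPM. Of these 10, 9 fell in H4K91R, where Agtr2 stood above H4WT, and 7 rose and 2 fell in H4K91Q. Between the mutants 8 were higher in H4K91Q than in H4K91R and 0 lower, and Agtr2 was also higher in H4K91Q. Of the neuronal markers 0 were higher and 5 lower in H4K91Q than in H4K91R. For radial glia and astroglia 1 was higher and 2 lower, and for endothelium 1 was higher and 0 lower. In the remaining marker lists 0 passed between the mutants. The part of these markers in the receptor values was not tested.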

How the data were processed

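The 9 libraries are poly(A) RNA from neural cells, per the labels, made with an RNeasy kit and NEBNext Ultra II kits. The deposited table holds expected counts per Entrez gene as whole numbers; the submitters' processing notes name Salmon 0.8.2, DESeq2 (no role) and mm10. Rounding before the fit therefore changed nothing, and no source used here gives other steps. RefSeq names matched 24045 of 24100 IDs.

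edgeR 4.0.16 in R 4.3.3 was used with filterByExpr (minimum count 10), TMM scaling and a quasi-likelihood fit of all 9 libraries with a term for group. Tests were two-sided, Benjamini-Hochberg adjusted over 14761 genes, at 0.05; standard errors are the log2 difference over the square root of F. Alternatives were other scalings, DESeq2 1.42.0, limma-voom (limma 3.58.1), no filter, a replicate block, compared groups only, and leaving out each library. The fit was also run on simulated counts in which few genes changed, all upward. That run cannot check the scaling where many genes differ in both directions, as here.

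The receptors, gene lists and tests were chosen with earlier results of these data known. Named genes were up to 4 called members per list (mean of at least 1 CPM, smallest adjusted p), all ligands and receptors of the 4 peptide systems, the 5 largest changes each way among other receptors (at least 2 CPM, groups not overlapping), and the 3 genes most like each receptor (log2 CPM, prior count 1). A further gene of the angiotensin list was left out and is not reported here. Exon lengths are merged GENCODE M21 exons.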

Additional observations from a re-analysis of the deposited data

Results flagged for a closer look

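The difference of each mutant from H4WT was not the same for 9 of the 60 named genes, by the test of H4K91Q against H4K91R (edgeR, Benjamini-Hochberg over all genes), which 5.16% of all tested genes passed. Of the 9, Npy2r and Gnaz were singled out after their values were seen, and Agtr2 and Ednrb belong to the receptors selected on these libraries and are given without p-values. Adgrg1, Adgrb3, Adgrb1 and Ptgfr were named for large increases against H4WT in these same libraries. Gnao1 was named for its smallest adjusted p in any of the contrasts. The p-values below and the count of 9 are therefore not independent of how the genes were chosen, and nothing is read from that count. Higher in H4K91Q were Agtr2, by 0.75 on the log2 scale, Ptgfr, by 1.36 (adjusted p = 0.0119), and Npy2r, by 1.61 (adjusted p = 0.0141). Lower in H4K91Q were Ednrb at -0.57, Gnao1 at -0.50 (adjusted p = 0.00786) and Gnaz at -0.68 (adjusted p = 0.0421). So were the adhesion receptor genes Adgrg1 at -0.58 (adjusted p = 0.0184), Adgrb3 at -0.55 (adjusted p = 0.0371) and Adgrb1 at -0.80 (adjusted p = 0.0114). Without H4K91R replicate 2 the adjusted p was 0.0910 for Adgrg1, 0.134 for Adgrb3, 0.0649 for Adgrb1, 0.0668 for Ptgfr and 0.140 for Gnaz. Without H4K91Q replicate 2 it was 0.0651 for Adgrg1, 0.128 for Adgrb3, 0.0555 for Adgrb1 and 0.152 for Gnaz. Calls also ended without H4K91Q replicate 1 for Adgrg1, Adgrb3 and Gnaz, and without H4K91R replicate 1 or 3 for Adgrb3 and Gnaz. For Npy2r the adjusted p was 0.0583 without H4K91R replicate 1, 0.0537 without H4K91R replicate 2 and 0.0509 without H4K91Q replicate 1. Groups of 3 libraries are too small for a test of outlying libraries.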

How the results depend on the processing

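No receptor described here or other named gene that passed the test changed direction in the alternatives run. The counts of other receptors called against H4WT stayed within 1.5 times of the main counts: 47 to 69 rose and 22 to 33 fell in H4K91R, and 44 to 61 rose and 28 to 38 fell in H4K91Q. Between the mutants, leaving out 1 library gave 1 to 5 risen and 1 to 15 fallen; the cause was not tested. With a replicate block the counts were 59 and 30 in H4K91R, 50 and 36 in H4K91Q, and 6 and 17 between the mutants, against 5 and 12. Same-numbered libraries did not deviate together throughout (r = 0.150, 0.018 and -0.146 for H4WT with H4K91R, 0.145, 0.183 and 0.124 for H4WT with H4K91Q, and 0.189, -0.027 and -0.016 for the mutants), so the numbers were not taken as pairs. Differently numbered libraries ran from -0.261 to 0.235 for H4WT with H4K91R and from -0.186 to 0.197 for the mutants. For H4WT with H4K91Q they ran from -0.221 to 0.043, below every same-numbered value there. Whether same-numbered libraries share a batch was not tested. For the other named genes 831 of 847 values in H4K91R, 824 of 848 in H4K91Q and 814 of 848 between the mutants stayed on their side of the threshold. Among these, values not past it took another sign in 12, 3 and 12 cases, such as Atp6ap2 in H4K91R with library-total scaling (-0.07 to 0.11). Fits without 1 library assume that the remaining libraries of its group vary like the rest. Counts were lowest for Gpr83 (0 to 11) and Sstr2 (8 to 20) in H4WT. They were also low for Gpr149 and Gpr176 in the mutants (7 to 37).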
